A study of Rattus norvegicus with 2 samples.

Results

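The 36 genes described here build the basement membrane, the thin sheet of matrix under epithelia and around glomerular capillaries, and anchor cells to it. They comprise integrin chains, laminin chains, chains of collagens IV, XV and XVIII, nidogens, the proteoglycans perlecan (Hspg2) and agrin, dystroglycan, and the kinases Ilk and Ptk2. Probes were assigned to a gene when the RefSeq transcript accession given for the spot belongs to that gene in the current rat annotation. This found 35 probes for 22 of the 36 genes, out of 40998 probes and 13435 named genes on the array. No probe was assigned to Itga2, Itga6, Itgav, Itgb8, Lama2, Lama4, Lama5, Col4a2, Col4a3, Col4a5, Col15a1, Nid1, Hspg2 or Dag1, and these 14 genes were not analysed here.

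The RNA came from the kidneys of female rats of the PCK strain, which has an inherited Pkhd1 mutation and is the rat counterpart of human autosomal recessive polycystic kidney disease. Both groups carried the mutation. One group was given 10 mg/kg pioglitazone, a PPAR-gamma agonist, by daily gavage, beginning at an age of 4 weeks and ending at 20 weeks, and the control group was given vehicle with 0.5% DMSO. RNA was pooled within each group, from 5 rats by the design text and 3 by the labelling text, labelled with Cy3 and hybridised to 1 array per group. No replicate check, error between animals or p-value is therefore possible for any difference below, and the number of arrays limits the precision.

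Basement membranes hold a network of laminin trimers (an alpha, a beta and a gamma chain) and a network of collagen IV trimers, which nidogens and perlecan connect. Integrins are receptors of an alpha and a beta chain that bind these networks outside the cell, and inside it pass adhesion signals through the kinases Ilk and Ptk2. In the kidney the laminin and collagen IV chains differ between the glomerulus and the tubules. Altered basement membranes are a known feature of cystic kidneys, and beta 4 integrin and an epithelial laminin that holds the Lama3 and Lamb3 chains have been described in the epithelium of human polycystic kidneys.

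The label of kidney was checked against marker genes. All 7 proximal tubule and all 7 podocyte markers examined were well above background on both arrays. Of 43379 spots that were not controls, 71.8% on the vehicle array and 73.1% on the pioglitazone array were well above background. Values below are the software's background-subtracted signals in linear units. Summed signals of marker lists are likewise before scaling, and the sum over all measured genes was 1.09 times as high with pioglitazone. Differences are pioglitazone minus vehicle on the log2 scale with both arrays aligned at the 75th percentile of their signals. Before that the pioglitazone array stood 0.08 higher, a factor of 1.06. Each difference has a technical error, computed from the errors that the scanner software gives both spots, which contains no spread between rats. For bright spots the software's error is close to a fixed share of the signal, such as 364 at 3640 for Agrn and 164 at 1640 for Lamb3. Bright genes therefore have nearly the same technical error of 0.20, which is no measured noise of the single gene. For probes printed 10 times this error was averaged over spots and not reduced for their number. Where a gene had several probes, the brightest gave its value. In whole-kidney RNA, fewer cells of a type and less RNA per cell cannot be told apart.

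Of the basement membrane and integrin genes measured in the 2 pools, 1 differed by more than 1.5-fold. The laminin beta 3 chain gene Lamb3 was 1.76-fold lower with pioglitazone. Of the 22 genes with a probe, 20 were well above background on both arrays, and 19 of these differed by less than 1.5-fold, as did 97.3% of all measured genes. The median difference of the 20 genes was -0.01, against 0.03 over all 10484 measured genes, and without the scaling it was 0.07, against 0.11 over all genes. Differences were negative for 11 members and positive for 9, while 43.8% of all measured genes were negative.

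A gene was called lower or higher when it differed by 1.5-fold or more and by more than 2 times its technical error. For bright genes 2 times the error is less than 1.5-fold, so that the fold limit alone decided. By this rule 1 member was lower and 0 were higher. Among all measured genes 1.76% were lower and 0.754% were higher, and with 20 members the count of 1 is read as a description of Lamb3, not of the list. The member differences ran from -0.82 for Lamb3 to 0.32 for Itga3. The plot of member differences shows 19 of the 20 genes with a bar that crosses 0.

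**Figure D1:**
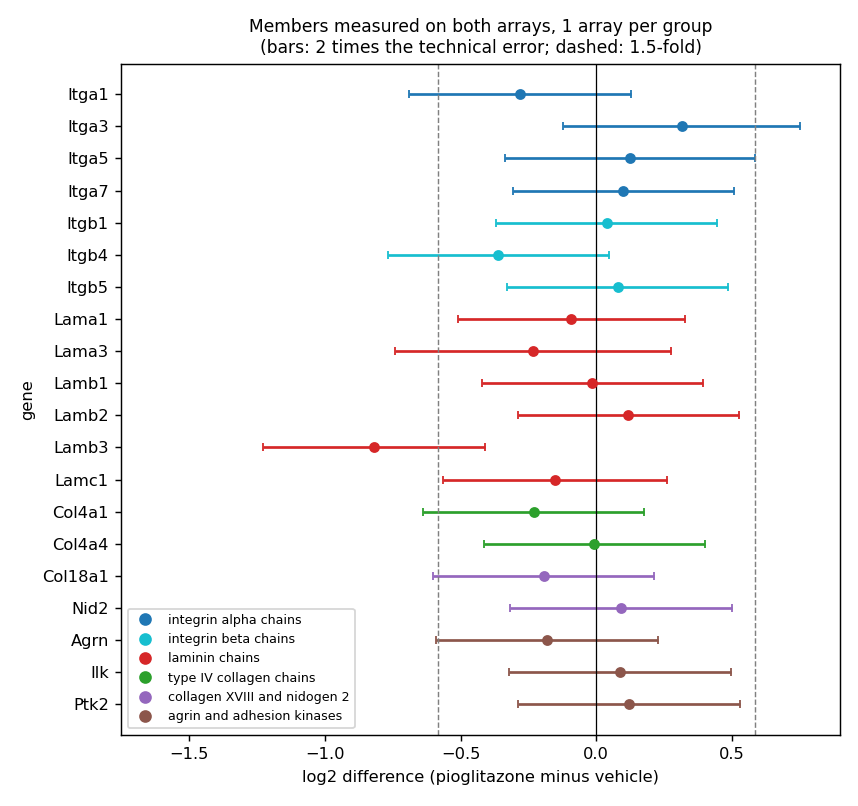
Log2 difference between the pioglitazone and the vehicle array (x axis) for the 20 members measured on both arrays (y axis), coloured by role. Points are single values from 1 array per group, bars are 2 times the technical error and dashed lines mark 1.5-fold. Lamb3 at -0.82 is the only member beyond the dashed lines, and the other 19 lie between -0.36 and 0.32.

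The integrin alpha chains, which set the ligand that a receptor binds, had a median difference of 0.11 over 4 measured genes, and none was called. The median was 0.015 with normexp, -0.078 with the mean over probes and -0.090 for the 2 genes above the median signal, so that no direction can be given for the group. Itga1 encodes the alpha chain of a collagen receptor with a preference for collagen IV. It had a signal of 14800 on the vehicle array and 12900 with pioglitazone, a difference of -0.28 with a technical error of 0.20. This was the lowest value among the alpha chains and lay within 2 times its error.

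Itga3, the alpha chain of a laminin receptor of podocytes and collecting ducts, had a positive difference at a low signal. It read 36.2 with vehicle and 47.7 with pioglitazone, a difference of 0.32 with an error of 0.22. Podocyte markers were positive for 6 of 7 genes, with a median of 0.13 and a summed signal of 13437 with vehicle and 15915 with pioglitazone. Most of these sums came from Podxl, with 10100 and 11700. Collecting duct markers had a median of -0.06, and 4 of 6 were negative. The part of either cell type in the Itga3 value was not tested. With normexp background correction the Itga3 difference was 0.08.

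Itga7, another laminin-binding chain, best known from muscle, read 2670 and 3030 on its brighter probe and 159 and 170 on its dimmer one, in the order vehicle and pioglitazone. The differences of 0.10 and 0.01 have the same sign and lie well inside the error. Itga5, the alpha chain of the fibronectin receptor, was dim on all 3 of its probes. The brightest gave 26.5 and 30.6, a difference of 0.13, and the next gave 12.4 and 8.95, a difference of -0.55 with an error of 0.36. The probes disagree in direction, so that no direction can be given for Itga5.

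Itga8, the alpha chain of the nephronectin receptor needed for kidney development, was not well above background on either array. Its probes read 6.41 and 6.53 with vehicle and 6.51 and 4.21 with pioglitazone, where the lowest signals well above background were 7.66 and 7.16. The beta chain gene Itgb3 was likewise not well above background, at 2.90 and 4.68. No difference was derived for either gene.

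Among the integrin beta chains, 3 measured genes had a median of 0.04, which was 0.12 without scaling and just below 0 under another scaling, and none was called. Itgb4 pairs with the alpha 6 chain in hemidesmosomes, the anchors of epithelial cells on laminin. It read 3990 with vehicle and 3290 with pioglitazone, a difference of -0.36, or 1.28-fold lower, with an error of 0.20. Itgb4 had the second lowest difference of all members after Lamb3, but lay within 2 times its error, and 6.30% of all measured genes had a lower value. Itgb5, which pairs with the alpha v chain as a vitronectin receptor, read 3210 and 3590, a difference of 0.08.

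Itgb1, the beta chain shared by most matrix-binding integrins, gave contrary values on its 2 probes. The brighter probe, with 1 spot, read 3790 with vehicle and 4120 with pioglitazone, a difference of 0.04. The other probe was printed 10 times on each array, and its spots ran from 573 to 638 (median 614.5) with vehicle and from 472 to 504 (median 489) with pioglitazone. All 10 spots were lower with pioglitazone and the spots of the 2 arrays did not overlap. How many other probes printed 10 times separate in this way was not counted, so the separation cannot be called unusual. The mean difference was -0.40 with an SD over spots of 0.07. The median SD was also 0.07 over the 203 probes printed 10 times with all spots well above background. Spots on an array measure the same pooled RNA, so this spread is technical only. The software's error of 0.20 is that of a single spot and was not reduced for the mean of 10 spots. The value lies within 2 times that error but outside the spread over spots, and differences between rats enter neither measure.

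The 2 Itgb1 probes thus differ from each other by 0.44. Of the 2418 genes with several measured probes, 9.18% had probes at least that far apart. A mean over both probes would put Itgb1 at -0.18 in place of 0.04, so that its direction depends on the probe. The plot of replicate spots shows the 10-spot probe of Itgb1 beside that of Ptk2.

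**Figure D2:**
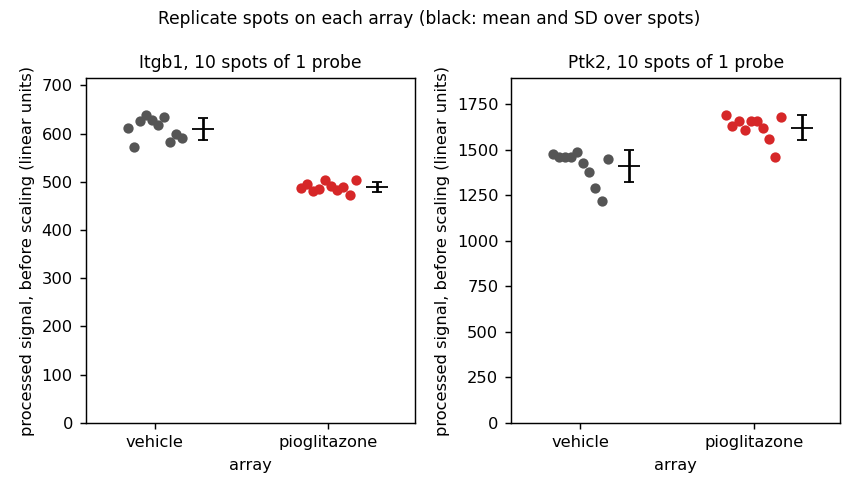
Processed signal before scaling (y axis, linear units from 0) of the 10 replicate spots of 1 Itgb1 probe (left) and 1 Ptk2 probe (right) on the vehicle and the pioglitazone array. Dots are spots of the same pooled RNA, and black marks give the mean and SD over spots. The Itgb1 spots lie at 573 to 638 against 472 to 504, and the Ptk2 spots at 1220 to 1490 against 1460 to 1690.

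The laminin chains held the lowest value. Their median difference was -0.12 over 6 measured genes, of which 5 were negative. The median lay between -0.14 and -0.04 over the 6 scalings compared, which move genes by small and similar amounts and are no separate evidence. For the 3 laminin genes above the median signal it was -0.014. Lamb3 encodes the beta chain of laminin-332, an epithelial laminin that serves as the ligand of the alpha 6 beta 4 integrin. Its brightest probe read 1640 with vehicle and 984 with pioglitazone, a difference of -0.82 with a technical error of 0.20.

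A second Lamb3 probe read 525 and 330, a difference of -0.75, and both of these probes met the criterion. The third Lamb3 probe was dim and read 10.9 and 12.6, a difference of 0.13 with an error of 0.34, and the mean over the 3 probes was -0.48, no longer past 1.5-fold. Lamb3 was the 68th lowest of the 10484 measured genes, and among 5242 genes above the median signal 30 were called lower. Over the 6 scalings its difference lay between -0.85 and -0.74.

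The Lamb3 value carries a limit of position. Its 3 probes are printed at rows 286, 293 and 350 of 532, inside bands 6 and 7 when the grid is split by rows into 10 bands, so that no Lamb3 value remains without those bands. Of genes whose value came from those bands 1.73% were called lower, and of genes elsewhere 1.77%.

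Lama3, the alpha chain of the same trimer, was also on the negative side without meeting the criterion. It was dim at 24.3 and 21.9, a difference of -0.23 with an error of 0.25. Lama3, Lamb3 and the receptor chain Itgb4 had negative differences on their brightest probe, as did 43.8% of all measured genes, and of these 3 genes Lamb3 was called. The signs held under each of the 6 scalings, but these move genes by small and similar amounts and are no separate evidence. No joint decrease of the 3 genes can be read from this.

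Laminin-332 is made by several stratified and ductal epithelia, among them the urothelium of the renal pelvis. Of 7 urothelial markers 5 were measured, all 5 were negative with a median of -0.33, and their summed signal was 2293 with vehicle and 1917 with pioglitazone. Of these, Krt15, a keratin of basal cells, was 2.05-fold lower (292 and 151) and the basal cell factor Tp63 was 1.54-fold lower (36.2 and 24.9). Krt5 (45.4 and 41.3, a difference of -0.22), Upk1b (-0.33) and Upk3a (-0.20) were not called. Another Tp63 probe, at 1.51 and 1.42, was not well above background on both arrays. Upk1a and Upk2 had no probe, and none of the 5 was at background on its brightest probe. Their part in the Lamb3 value was not tested.

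The promoters of Lama3 and Lamb3 are shown because Lamb3 is the called member and Lama3 its partner. Each run is the 250 bases before the annotated gene start, 5′ to 3′, from RefSeq in the GRCr8 build, at chr18:3952517-3952766 on the + strand for Lama3 and chr13:107362303-107362552 on the + strand for Lamb3. Capitals mark the AP-1 motif TGANTCA in Lama3 and the CRE motif TGACGTCA in Lamb3.
Lama3: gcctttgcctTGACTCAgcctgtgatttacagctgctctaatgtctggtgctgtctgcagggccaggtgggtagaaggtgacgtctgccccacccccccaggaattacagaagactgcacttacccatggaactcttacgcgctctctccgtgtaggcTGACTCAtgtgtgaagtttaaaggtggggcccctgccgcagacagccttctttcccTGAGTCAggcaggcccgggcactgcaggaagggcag
Lamb3: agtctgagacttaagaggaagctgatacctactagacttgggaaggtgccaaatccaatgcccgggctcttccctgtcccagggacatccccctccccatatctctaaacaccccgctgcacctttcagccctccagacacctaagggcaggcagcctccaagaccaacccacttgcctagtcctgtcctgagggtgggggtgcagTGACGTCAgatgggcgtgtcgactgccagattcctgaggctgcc
AP-1 is a dimer of Fos and Jun proteins, and CRE is the motif of cAMP-responsive factors. The Lama3 window holds 3 AP-1 matches, which begin 240, 92 and 36 bases before the start. Of all 33469 promoter windows of that length 6.34% hold 1 or more AP-1 matches and 5 windows hold 3 or more. The Lamb3 window holds 1 CRE match 44 bases before the start, as do 1.59% of all windows, and no AP-1 match. DR1, the motif of PPAR-RXR dimers, spelled here as AGGTCA and a further AGGTCA after 1 base of any kind, was found in 0 of the 28 member windows and in 0.0508% of all windows. Of the 28 member windows 1 held an AP-1 match and 1 a CRE match. The GC box GGGCGG was searched as well and was found in 18 of the 28 member windows and in 30.5% of all windows. Motifs were searched on both strands, and CRE was added after the Lamb3 window had been read. A match is a run of letters and no measured site.

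The laminin chains outside this trimer differed little. Lama1 and Lamb1 form with Lamc1 the laminin of the early kidney epithelium. Lama1 read 78.2 and 77.7, a difference of -0.09, and Lamb1 read 1240 and 1300, a difference of -0.01 that was 0.07 without scaling. Lamc1, the gamma chain of most laminins, read 188 and 179 on its brighter probe, a difference of -0.15, and its dimmer probe gave -0.26. Lamb2, the beta chain of the mature glomerular basement membrane, was the only positive laminin among the members at 0.12, from 4160 and 4780. With normexp the Lamb2 difference was -0.007. None of these values exceeded 2 times its error.

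**Figure D3:**
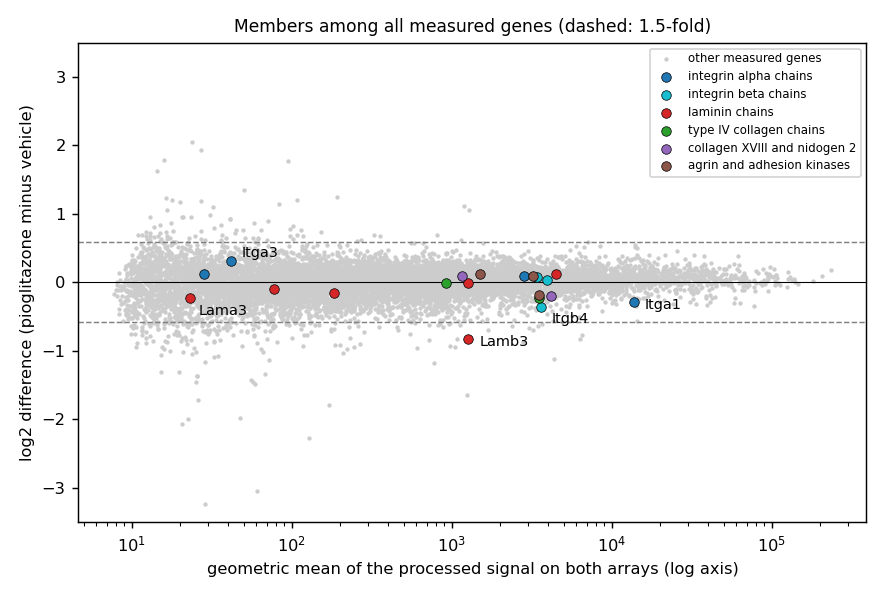
Log2 difference (y axis) against the geometric mean of the processed signal on both arrays (x axis, log scale) for the 10484 measured genes in grey and the 20 measured members in colour by role, with dashed lines at 1.5-fold. Lamb3 lies below the grey band at its signal, and Itga3 and Lama3 sit among the dim genes, where the grey band is wider.

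Of the type IV collagens, Col4a1 and Col4a4 were measured, with a median of -0.12, and neither was called. Col4a1, part of the collagen IV network found in all basement membranes, gave contrary values on 2 bright probes. One read 3680 and 3320, a difference of -0.23, and the other 3200 and 3640, a difference of 0.10. Both lie within 2 times their error, so that no direction can be given for Col4a1. Col4a4, part of the collagen IV network of the glomerular basement membrane that is defective in Alport syndrome, read 895 and 943, a difference of -0.01 that was 0.08 without scaling.

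Collagen IV genes lie head to head in pairs. The promoter windows of Col4a1 and Col4a2, extended into the gene as RefSeq's table gives them, overlap by 176 bases on opposite strands, and those of Col4a3 and Col4a4 by 88. Only 1 gene of each pair had a probe here, so the pairs could not be compared.

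Col18a1 encodes a collagen with heparan sulfate chains whose end fragment is endostatin. Its probes read 4320 and 4000 for one and 1880 and 1630 for the other, differences of -0.19 and -0.29 with an error of 0.20 each. Both probes have the same sign and neither exceeded 2 times its error. Nid2, a nidogen that bridges laminin and collagen IV, read 1090 and 1230, a difference of 0.09. The median of these 2 genes was -0.05, and it was 0.03 without scaling.

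Agrn encodes agrin, a heparan sulfate proteoglycan abundant in the glomerular basement membrane and a ligand of dystroglycan. It read 3640 and 3400, a difference of -0.18. Ilk, a scaffold that ties the beta 1 integrin tail to actin, read 3040 and 3420, a difference of 0.09. Ptk2 encodes focal adhesion kinase, and its brightest probe was printed 10 times. Its spots ran from 1220 to 1490 (median 1455) with vehicle and from 1460 to 1690 (median 1645) with pioglitazone, which overlap before scaling, and after scaling all 10 spots were positive with a mean difference of 0.12 and an SD over spots of 0.04. The other 3 Ptk2 probes gave 0.03, -0.26 and -0.01, and the last 2 were dim, with vehicle signals of 40.8 and 14.1.

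Agreement between probes bears on how far any small difference of these genes can be read. Of 31 member probes well above background on both arrays, 18 had negative differences, and the 2 that exceeded 2 times their technical error were both of Lamb3. Of the 8 members with several measured probes, 3 had the same direction on all probes, against 64.5% of all 2418 such genes. The median distance between the highest and the lowest probe was 0.35 for these 8 genes and 0.13 for all. The genes with the same direction on all probes were Itga7, Lamc1 and Col18a1.

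**Figure D4:**
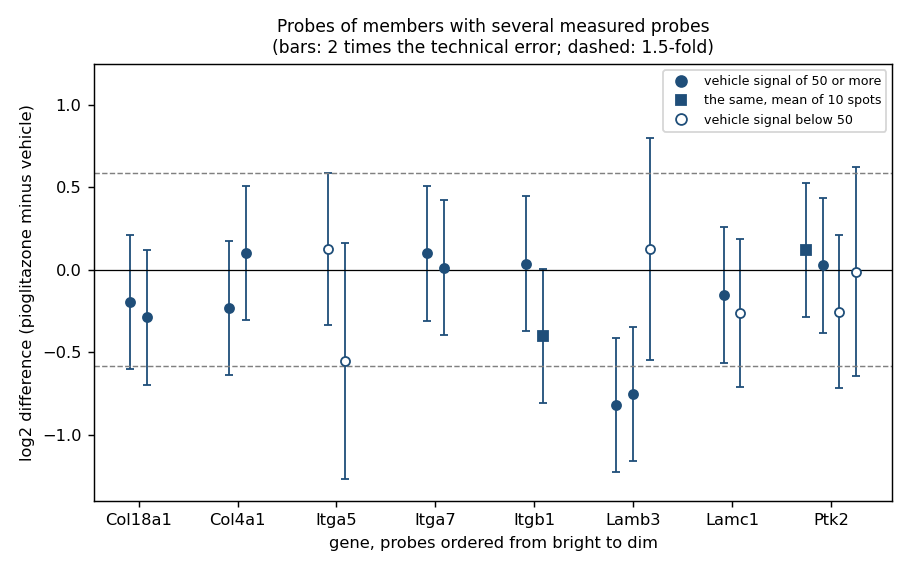
Log2 difference (y axis) of each measured probe of the 8 members with several measured probes (x axis), ordered from bright to dim within a gene. Points are probes, squares are means of 10 spots, open points have a vehicle signal below 50, bars are 2 times the technical error and dashed lines mark 1.5-fold. The 2 bright Lamb3 probes lie at -0.82 and -0.75, and the probes of Itgb1, Col4a1, Itga5, Ptk2 and Lamb3 lie on both sides of 0.

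Related genes outside the 36 give the setting. Of 13 other integrin chains 6 were measured, with a median of -0.15, and 1 was called lower. This was Itgam (24.3 and 15.1, a difference of -0.77), the alpha chain of the macrophage receptor Mac-1, and its beta chain Itgb2 of leukocytes was at -0.53, while Itgal of lymphocytes was at -0.30 and the myeloid chain Itgad at 0.40. These are chains of blood cells. Macrophage markers were negative in 7 of 7 measured genes of 8, with a median of -0.35 and a summed signal of 20165 with vehicle and 18889 with pioglitazone. Cd163 was not well above background, Itgam is itself on that list, and the markers' part in the integrin values was not tested.

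Of 10 other basement membrane laminin and collagen chains 5 were measured and 0 were called. The median was -0.26, with Col8a1 of vessel walls at -0.49, Col7a1 of anchoring fibrils at -0.26 and Lamc3 at 0.53. Lamc3 rests on a probe of 30.4 and 46.4, and its other measured probe gave -0.12. Of 26 adaptors of focal adhesions, which link integrin tails to actin, 21 were measured, 0 were called and 0 lay beyond 2 times their error. The median was -0.03, and 0.05 without scaling. The farthest from 0 were Vasp (-0.30), Fermt3 (-0.21), Lims2 (0.18) and Flna (-0.17).

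Soluble and matricellular ligands of integrins had a median of -0.11 over 10 of 13 genes, and 0 were called. The matrix glycoprotein tenascin C (Tnc) was at -0.57, vitronectin (Vtn) at -0.44, osteopontin (Spp1) at -0.35 and fibronectin (Fn1) at -0.25. All 8 fibroblast markers had negative differences (median -0.37), with a summed signal of 19919 with vehicle and 16189 with pioglitazone, and 1 of them, Col3a1, was called lower (2900 and 1980). Their part in the ligand values was not tested.

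Enzymes of collagen folding and cross-linking had a median of -0.07 over 13 of 16 genes, which was 0.02 without scaling, and 0 were called. The lysyl oxidase Loxl2, which cross-links collagen IV, was at -0.44, the lysyl hydroxylase Plod2 at -0.35, the prolyl hydroxylase P3h2 at 0.19 and Loxl1 at -0.18. Another Plod2 probe of similar signal (167 and 108) gave -0.71 with an error of 0.21, which is past 1.5-fold and 2 times its error. Other basement membrane components had a median of -0.04 over 6 of 16 genes, which was 0.05 without scaling, with Fbln1 at -0.49, the tubulointerstitial nephritis antigen Tinag, a tubular basement membrane protein, at 0.37, the netrin Ntn4 at 0.15 and Smoc2 at -0.13. Fbln1 is also on the fibroblast list.

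The dystroglycan complex and the enzymes that glycosylate it had a median of 0.10 over 15 of 18 genes. The mannosyltransferase Pomt2 was at 0.52, B4gat1 at 0.43 and utrophin (Utrn) at -0.24. Tetraspanins and other laminin or collagen receptors had a median of 0.09 over 13 of 13 genes and 0 called, with the hyaluronan receptor Cd44 at -0.45, the collagen receptor Ddr1 at -0.29, the laminin receptor Bcam at -0.24 and Cd151, a tetraspanin partner of laminin-binding integrins, at 0.21. The plot of related lists shows most of these genes inside the 1.5-fold lines.

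**Figure D5:**
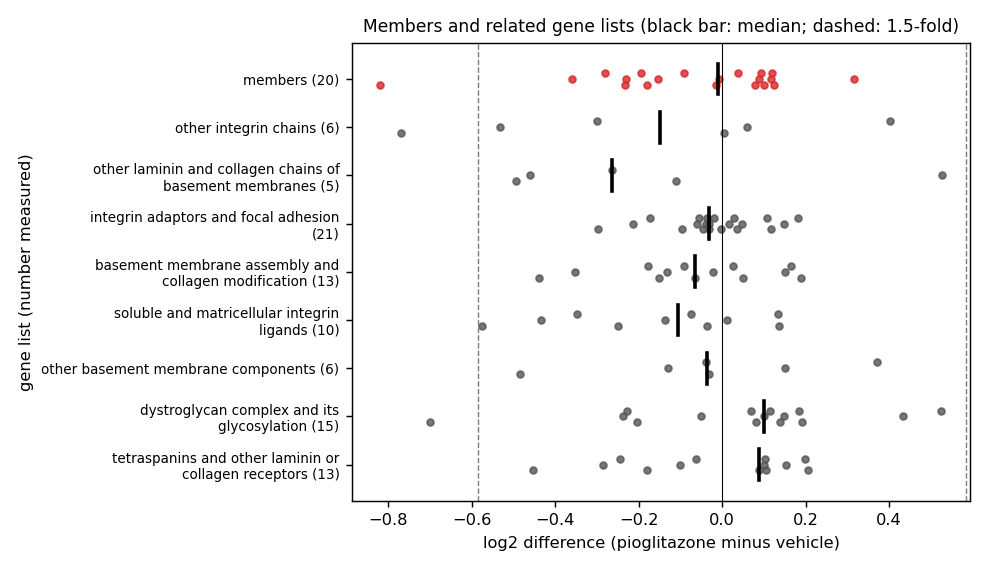
Log2 difference (x axis) of each measured gene in the members and in 8 related lists (y axis, number measured in brackets). Points are genes, black bars are list medians and dashed lines mark 1.5-fold. Lamb3 lies beyond the dashed lines among the members at -0.82, and Itgam among the other integrin chains at -0.77.

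Pparg, which encodes the receptor that pioglitazone binds, read 37.3 with vehicle and 32.2 with pioglitazone as a mean of 10 spots, a difference of -0.30 with an error of 0.23, and was not called.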

How the data were processed

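Kidney RNA, pooled within each group, was labelled with Cy3 and read on 1-colour Agilent rat arrays, 1 array per group, both on the same slide. The deposited intensities are the processed signals of Agilent Feature Extraction 10.7.3.1, background-subtracted by that software per the file headers. The authors' value table equals these signals and is not scaled between arrays. Here control spots and 149 spots with an outlier flag were left out, each array's 75th percentile of the log2 signal was subtracted, and spots of a probe were averaged (Python 3.11.15, numpy 2.4.6, pandas 2.3.3). A probe took the symbol of its RefSeq accession in the current rat annotation, so that 16959 of 40998 probes (41.4%) were named and 24039 were not, and the brightest probe stood for a gene. Genes well above background on both arrays were measured. The criterion was 1.5-fold and more than 2 times the technical error. No p-value was computed, since each group has 1 array.

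Alternatives were 5 other scalings, normexp (offset 50, limma 3.58.1 in R 4.3.3) on median signals because mean signals were not used here, the mean over probes, other filters and limits, and the removal of the sixth and the seventh band of grid rows. The members, related lists and marker lists were chosen with earlier results of these data known. All members are accounted for. Of each related list, called genes and up to 4 genes with the largest absolute difference are named (some are not reported here), of each marker list counts, medians, summed signals and called genes, and Pparg as the target of the drug.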

Additional observations from a re-analysis of the deposited data

How the results depend on the processing

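Of 210 differences of single members under alternative settings, 206 moved by less than the technical error and 4 by more, namely Itga3 with normexp (0.08) and Itga5 (-0.21), Itgb1 (-0.18) and Lamb3 (-0.48) with the mean over probes. Many of the 206 could not move by construction. No member spot had an outlier flag, and only 8 members had several measured probes to average. The filters on signal and grid rows left most remaining values as they were. The count of 206 is therefore no measure of robustness. The number of members called higher was 0 under all 13 alternatives. The number called lower was 1 under 11 of the 13, and 0 with the mean over probes and 0 without the middle grid rows, where Lamb3 has no probe and 15 members are left. Without scaling the medians were 0.072 for all members, 0.20 for integrin alpha chains, 0.12 for beta chains, -0.040 for laminins, -0.037 for type IV collagens, 0.032 for type XV and XVIII collagens and nidogens and 0.17 for proteoglycans and kinases. With the mean over probes they were -0.078 for alpha chains, -0.18 for beta chains, -0.035 for type IV collagens and -0.030 for proteoglycans and kinases. Among genes above the median signal they were -0.090 for alpha chains and -0.014 for laminins, with normexp 0.015 for alpha chains, and without the middle grid rows -0.19 for type XV and XVIII collagens and nidogens, where 1 gene was left. The alternative of leaving out the middle grid rows gave no value for type IV collagens. Over all genes, calls lower numbered 184, and 47 with normexp and 117 without scaling. The shifts without scaling are the same 0.08 added to every gene, by which the pioglitazone array stood higher. The causes of the other shifts were not tested. No paired analysis was possible because only 1 array was run per group. Signals near background limit Itga3, Itga5 and Lama3, which read below 50 on both arrays.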

Other observations

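For marker lists of other cells of the kidney and its surroundings, the sign of the median difference varied from list to list. All 4 measured adipocyte markers of 6 were negative with a median of -0.64, and their summed signal was 2487 with vehicle and 1659 with pioglitazone. Of these 2 were called lower, the resistin gene Retn (276 and 60.4, a difference of -2.27) and the adipsin gene Cfd (1140 and 534, a difference of -1.18). Adipoq (822 and 814, a difference of -0.10) and Fabp4 (249 and 251, a difference of -0.07) differed little, so that the median describes none of the genes. Lymphocyte markers were negative in 3 of 3 measured genes of 6, with a median of -0.26, and summed signals of 844.4 and 801.4, and the T cell gene Cd2 was called lower (22 and 12.7, a difference of -0.88). Smooth muscle and mesangial markers, the cells that carry much of the integrin alpha 8 and alpha 1 chains, had a median of -0.06 over 7 of 8 genes with summed signals of 4064 and 4116 and 0 called.

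Markers of nephron segments were close to the median of all genes, with 0 called in each list. The median was 0.09 for 7 of 7 proximal tubule genes (summed signals 167078 and 186859), 0.09 for 3 of 4 thick ascending limb genes (197236 and 222645), 0.12 for 2 of 4 distal tubule genes (3400 and 3750) and -0.06 for 6 of 6 collecting duct genes (87807 and 92196). Endothelial markers had a median of 0.08 over 9 of 9 genes (14292 and 16989). Adrenal markers had a median of 0.09 over 3 of 6 genes and skeletal muscle markers one of -0.18 over 2 of 4, with summed signals of at most 165.5 on either array and 0 called.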
